A study of Rattus norvegicus with 15 samples.

Results

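The genes described here are 6 products of the Sertoli cell, the somatic cell that lines the seminiferous tubule: Clu, Shbg, Testin, Rhox5, Aard and Mro. They were found as every probe set whose platform annotation holds a single gene symbol and that symbol is one of the 6. This gave all 6 genes and 7 of the 31099 probe sets on the array, with Clu measured by a pair of probe sets and each of the other genes by 1. Transcripts were measured on Affymetrix 3' expression arrays in whole testes of LBNF1 rats, 25 to 27 weeks old per the labels. There were 10 control arrays, from testes the labels place before irradiation, and 5 arrays from testes after irradiation. The dose was 6 Gy to the lower abdomen, in protocol text that every sample carries, controls included, and the sources used here do not say how long after irradiation the testes were taken. The labels call the samples biological replicates without saying that each came from a different rat, so the p-values cover only the spread among these arrays, which may be technical.

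Sertoli cells nourish the germ cells, seal the tubule with junctions and secrete proteins into its lumen. Testosterone made by the Leydig cells between the tubules acts on spermatogenesis through them. Clu encodes clusterin, also called sulfated glycoprotein 2, an abundant secreted chaperone of rodent Sertoli cells. Shbg encodes sex hormone-binding globulin, whose testicular form is the androgen-binding protein that Sertoli cells release into the lumen. Testin encodes a secreted protein related to the cathepsin L proteases that has long been used as a marker of Sertoli-germ cell contact. Rhox5, also called Pem, encodes a homeobox transcription factor and is the classic androgen-dependent transcript of rodent Sertoli cells. Aard encodes a protein rich in alanine and arginine, and Mro encodes maestro, first described in the developing male gonad.

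Promoters of 2 of the 6 genes, Shbg and Testin, were matched by symbol in the RefSeq table of the assembly GRCr8, each 300 bases long from 250 bases before the gene's start to 50 after it. They are printed because Shbg encodes the product that binds androgen and Testin is the member whose signal moved furthest. Capitals mark the matches to letters searched on both strands: TGTTCT, a half-site of steroid hormone response elements, and AGATAA or TGATAA, a binding site of GATA factors. The Shbg window lies at chr10:54834852-54835151 on the minus strand and the Testin window at chr17:3852259-3852558 on the plus strand, and both are given 5′ to 3′ along the gene.
Shbg: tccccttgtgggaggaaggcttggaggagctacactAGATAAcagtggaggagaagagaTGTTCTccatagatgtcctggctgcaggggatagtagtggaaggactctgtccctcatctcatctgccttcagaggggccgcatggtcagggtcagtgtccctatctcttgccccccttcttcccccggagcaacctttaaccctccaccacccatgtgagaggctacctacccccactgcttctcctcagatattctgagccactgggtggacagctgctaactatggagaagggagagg
Testin: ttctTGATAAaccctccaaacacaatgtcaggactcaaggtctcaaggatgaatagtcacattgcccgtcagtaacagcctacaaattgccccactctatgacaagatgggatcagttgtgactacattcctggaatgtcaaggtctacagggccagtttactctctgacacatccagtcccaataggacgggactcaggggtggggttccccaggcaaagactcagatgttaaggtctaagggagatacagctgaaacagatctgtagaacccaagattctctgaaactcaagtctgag
The Shbg window held TGTTCT at position -191 and AGATAA at position -214 from the gene's start, and the Testin window held TGATAA at position -246. Of 33469 rat promoters of this length, 20.7% held TGTTCT and 18.9% held a GATA site, so neither match is uncommon. The full palindromic element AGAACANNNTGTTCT, found in 5 of all these promoters, and the SF-1 half-site AAGGTCA, found in 4.61% of them, had no match in either window. These are matches of letters, not measured sites.

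Values are the deposited log2 signals, whose zero point is not known. A probe set's level was therefore not set against another's, and each gene is compared only with itself across arrays. A probe set was tested when it reached its own array's median signal in at least 5 of the 15 arrays. Array medians lay between -1.61 and -1.37 in the controls and between -1.38 and -1.26 in the irradiated arrays. Of the member probe sets, 6 passed this filter, covering 5 genes, and the Rhox5 probe set did not. Changes are irradiated minus control in log2 units from limma, with the moderated standard error (SE), a 95% confidence interval and a Benjamini-Hochberg adjusted p over all 18711 tested probe sets, called at 0.05. In bulk tissue, fewer cells of a type and less RNA per cell cannot be told apart, and neither can more cells and more RNA per cell. Each labelling used the same amount of total RNA, so a signal also reports a transcript's share of that RNA. This share can rise when transcripts of other cells are lost, with neither more cells nor more RNA per cell. How much each of these gave to a change was not tested.

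The tested probe sets of Clu, Shbg, Aard and Mro rose in the irradiated testes, by between 1.40 and 2.29 log2 units, and in each of them every irradiated array lay above every control array. Testin was higher by a wider margin, but it passed the filter only through its irradiated arrays, so it had to differ, and it is described without a test. These counts stand against a wide background: 83.4% of all tested probe sets passed the threshold, with 49% of all tested called higher and 34.3% called lower. The groups did not overlap in 65.5%, with all irradiated arrays above all control arrays in 41.3% and below them in 24.2%. Between 11.4% and 25.2% of tested probe sets had a larger rise than each of the Clu, Shbg, Aard and Mro probe sets. Rhox5 was the exception, with lower values in most irradiated arrays and a signal near or below the array median throughout.

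**Figure D1:**
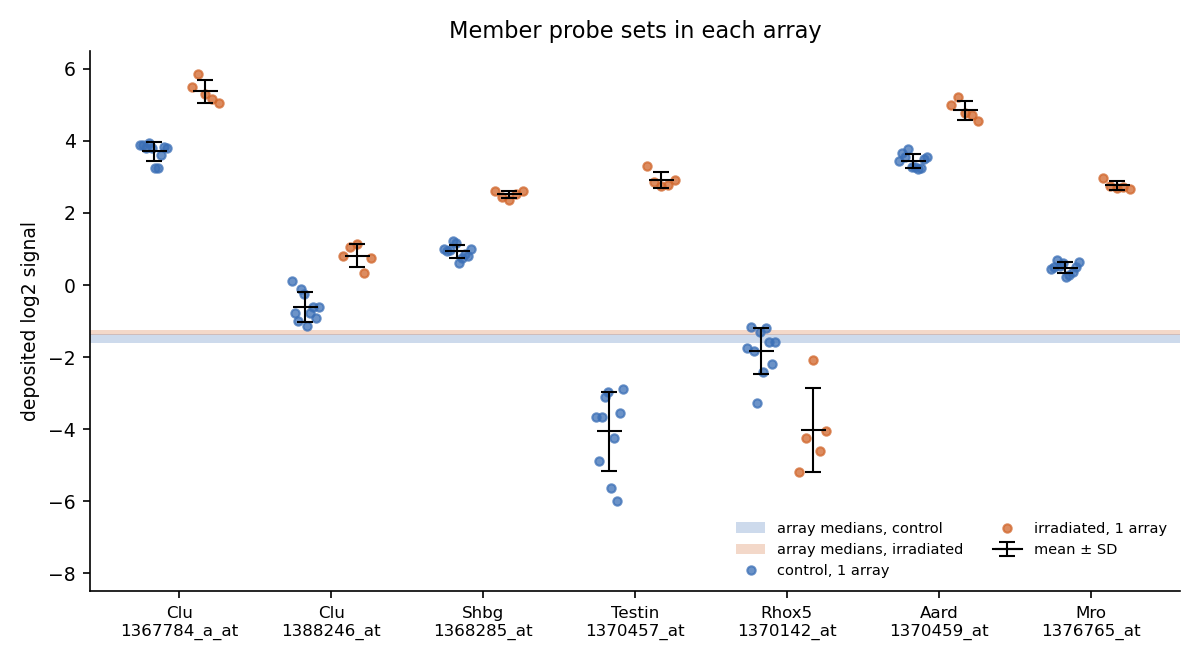
Deposited log2 signal of each member probe set in each array (y axis), 1 point an array, with mean ± SD for 10 control (blue) and 5 irradiated (orange) arrays, and bands showing the range of array medians in each group. The groups are apart for all probe sets except Rhox5, where 1 irradiated array at -2.09 lies among the controls, and Testin lies below the medians in every control array.

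Clu was measured by the probe sets 1367784_a_at and 1388246_at. In the 10 control arrays 1367784_a_at had a lowest value of 3.24, a median of 3.80 and a highest value of 3.95. In irradiated replicates 1 to 5 it read 5.49, 5.86, 5.30, 5.16 and 5.04. The lowest irradiated array thus lay 1.09 log2 units above the highest control array. Group means were 3.71 ± 0.26 (SD, n = 10) and 5.37 ± 0.32 (SD, n = 5). The change was 1.66 ± 0.15 (SE; interval 1.35 to 1.98), a 3.17-fold rise (limma, adjusted p = 1.78e-08).

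The other Clu probe set gave a similar change at a signal nearer the array median. In the controls 1388246_at ran from -1.14 through a median of -0.69 to 0.10. The irradiated arrays read 0.80, 1.06, 1.15, 0.34 and 0.74. The groups came closest here among the tested member probe sets, with a gap of 0.23 between control replicate 1 and irradiated replicate 4. The change was 1.43 ± 0.20 (SE; interval 1.01 to 1.84), or 2.69-fold (adjusted p = 3.64e-06). The intervals of the probe sets overlapped, so both measurements of clusterin gave a rise of about the same size.

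Shbg had the tightest irradiated values. Its probe set 1368285_at had a lowest control value of 0.62, a median of 0.97 and a highest of 1.22, with a mean of 0.94 ± 0.18 (SD, n = 10). The irradiated arrays read 2.61, 2.45, 2.37, 2.53 and 2.62, with a mean of 2.52 ± 0.11 (SD, n = 5). The groups were separated by 1.16 log2 units, wider than the range of either group. The transcript of the androgen-binding protein rose by 1.58 ± 0.10 (SE; interval 1.37 to 1.79), a 2.99-fold change (adjusted p = 1.31e-10).

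Testin moved furthest. Its probe set 1370457_at lay below the array median in all 10 control arrays, with a lowest value of -6.00, a median of -3.66 and a highest of -2.90. In the irradiated testes it read 3.31, 2.86, 2.76, 2.78 and 2.90, well above the array median in every array. The control values scattered widely, while the irradiated values stayed close together. Since values below the array median give only a bound, the difference is given as at least 21-fold. It sets the irradiated mean of 2.92 ± 0.23 (SD, n = 5) against the controls raised to their own array medians. The measured control mean was -4.06 ± 1.10 (SD, n = 10), a level with no order below the array median. The gap of 5.66 between the highest control array and the lowest irradiated array was the widest among the members. The gene Tes, an unrelated LIM-domain gene whose protein is also called testin, is a different transcript. Its 3 probe sets changed by -1.97, -1.27 and 1.21.

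Rhox5 gave the opposite direction at low signal. Its probe set 1370142_at had a lowest control value of -3.26, a median of -1.66 and a highest of -1.17, and reached the array median in 3 of 10 control arrays. In the irradiated arrays it read -5.18, -4.26, -2.09, -4.59 and -4.04 and reached the array median in none of the 5. Irradiated replicate 3 lay above control replicates 4, 6 and 9, so the groups overlapped. The difference of means was -2.20, between -1.83 ± 0.65 (SD, n = 10) and -4.03 ± 1.17 (SD, n = 5). With both means below the array median it carries no fold. In a limma fit without the filter on low values the difference was -2.20 ± 0.43 (SE; adjusted p = 0.00032). In that fit 66.8% of 31042 probe sets passed and 29% passed as lower. Most Rhox5 values lie below the array median, where levels have no order, so this p does not establish a fall. On log2(signal + 1), which compresses values at the bottom of the scale, the difference was -0.27.

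Aard, measured by 1370459_at, was well above the array median in all arrays. Control arrays ranged from 3.21 through a median of 3.46 to 3.76. The irradiated arrays read 4.99, 5.21, 4.76, 4.71 and 4.56. The lowest of these lay 0.79 above the highest control, and irradiated replicates 1 and 2 were the highest arrays, as they were for Clu 1367784_a_at. Means were 3.44 ± 0.19 (SD, n = 10) and 4.84 ± 0.25 (SD, n = 5). Aard rose by 1.40 ± 0.12 (SE; interval 1.15 to 1.65), or 2.64-fold (adjusted p = 9.34e-09).

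Mro, measured by 1376765_at, had the smallest error among the members relative to its change. Control arrays ranged from 0.22 through a median of 0.50 to 0.68. The irradiated arrays read 2.97, 2.76, 2.68, 2.73 and 2.67. The gap between the groups was 1.99 log2 units, wider than the whole range of either group. Means were 0.47 ± 0.15 (SD, n = 10) and 2.76 ± 0.12 (SD, n = 5). The maestro transcript rose by 2.29 ± 0.09 (SE; interval 2.10 to 2.48), or 4.89-fold (adjusted p = 4.11e-13), and its interval lay above those of Clu, Shbg and Aard.

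Transcripts of other testicular cells moved as well. All 10 tested spermatid markers and all 6 tested spermatocyte markers were lower in the irradiated testes, with measured median changes of -8.27 and -6.68. Of the genes on the array, 6 spermatid and 6 spermatocyte genes reached the array median in no irradiated array, and with values below the array medians raised to them these medians were -6.77 and -4.99. Where tested, such genes passed the filter only through control arrays, so their direction was set by it. The summed log2 level of the spermatid list ran from 8.29 to 8.91 in the controls and from -0.06 to 1.97 in the irradiated arrays. Of 3 tested spermatogonial markers, Kit was higher, Gfra1 was lower and Uchl1 did not pass, with a median of 0.23. Kit passed the filter only through irradiated arrays and Gfra1 only through control arrays, so the filter set both directions. All 8 Leydig cell markers were higher, with a median of 3.73, and the list's summed level lay between 2.72 and 3.26 in the controls and between 6.52 and 6.82 in the irradiated arrays. Macrophage markers were higher in 7 of 9 genes and lower in 2, with a median of 2.29 that became 1.48 with values raised to the array medians. All 7 peritubular and smooth muscle markers were higher (median 1.24), as were 5 of 6 endothelial markers (1.01, or 0.54 with values raised) and 3 of 4 blood markers (1.83). Within these counts, Cd68, Cd163, Ptprc, Cnn1, Tagln, Pecam1 and Kdr passed the filter only through irradiated arrays, and Adgre1 and Ppbp only through control arrays. The direction of these genes was set by the filter. The part of the marker shifts in the members' rises was not tested. Epididymal and liver markers, which would report RNA of those organs, had no gene called higher. The summed epididymal level ran from -0.33 to 0.46 in controls and from -0.14 to 0.11 in irradiated arrays, over the 3 of 12 fixed genes on the array. Only 2 of these were tested, and Ros1 passed the filter only through control arrays, so it could not be called higher. The liver list, relevant because liver secretes clusterin and, in many species, sex hormone-binding globulin, summed to 0.87 to 1.28 against 0.44 to 0.75. No liver gene of the 7, albumin included, reached the array median in any irradiated array. The tested ones therefore passed the filter only through control arrays.

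Other genes used as Sertoli cell markers gave a scale for the shift. Whether other cells of the testis also gave part of their signal was not tested. The list of identity and structure genes, which holds no member, had 13 of its 19 genes tested. Of these, 12 rose, 1 fell, and the median change was 2.27, beside 0.20 over all 10841 tested genes. Cdh2, which encodes N-cadherin, rose by 3.31 ± 0.16 (SE), and Vim, which encodes vimentin, by 2.99 ± 0.11. Kitlg, which encodes the KIT ligand that Sertoli cells present to germ cells, rose by 2.90 ± 0.12 in the probe set of highest signal and by 0.83 in another. The transcription factor genes Wt1 and Gata4 rose by 2.32 and 2.61, Dmrt1 by 0.32, close to the median shift of 0.30 over all tested probe sets, and Gata1 fell by 0.53. Gata1 passed the filter only through its control arrays, so its direction was set by the filter. Most of these Sertoli markers thus stood above the array median in both groups, at higher signal in the irradiated testes.

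The members were then set against these Sertoli genes on the same array, by subtracting each array's median over the 13 reference genes. That median was -0.05 ± 0.17 (SD, n = 10) in the controls and 2.25 ± 0.13 (SD, n = 5) in the irradiated arrays, a difference of 2.30. On this scale 90.3% of tested probe sets passed the threshold, 83.5% as lower and 6.82% as higher, so a lower call is the usual outcome. The pair of Clu probe sets and those of Shbg and Aard were called lower, and Mro did not pass. In bulk tissue these relative values are not changes measured within Sertoli cells.

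**Figure D2:**
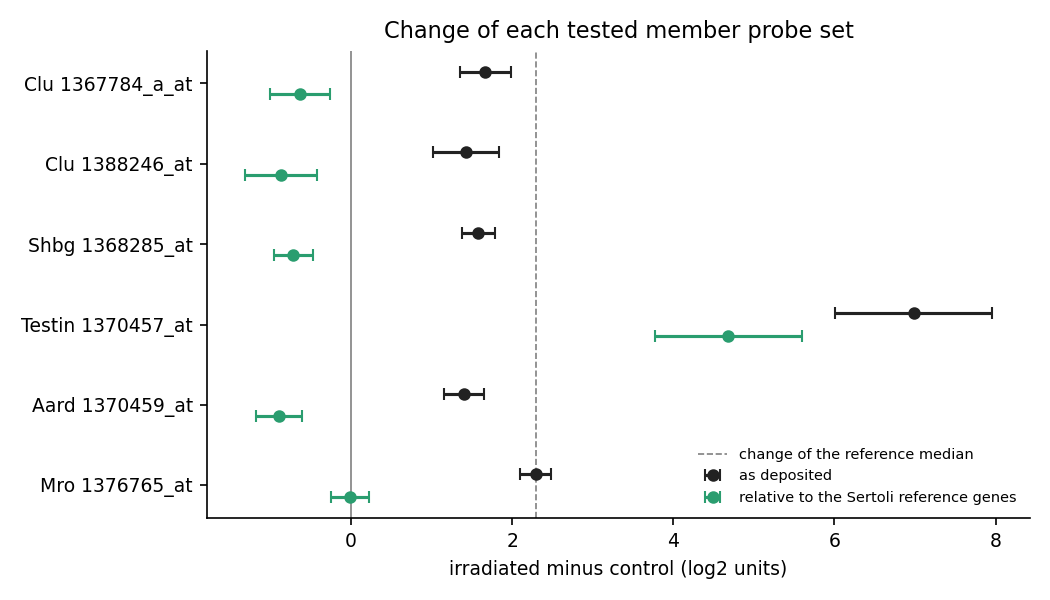
Irradiated minus control (x axis, log2 units) for each tested member probe set, as deposited (black) and relative to the median of the Sertoli reference genes (green), with 95% confidence intervals, and a dashed line at the change of that median, 2.30. Clu, Shbg and Aard lie to the left of the dashed line, Mro on it and Testin far to its right, where the plotted Testin value is the measured mean difference and not its bound.

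Relative to the reference, Shbg was lower by a margin that kept the groups apart. Its control arrays ran from 0.60 to 1.24 on this scale, and the irradiated arrays read 0.15, 0.32, 0.13, 0.39 and 0.33. The relative change was -0.72 ± 0.11 (SE; interval -0.96 to -0.48; adjusted p = 1.09e-05). Every irradiated array lay below every control array, as it did in 75.1% of all tested probe sets on this scale.

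Aard changed by -0.90 ± 0.13 relative to the reference (SE; interval -1.18 to -0.61; adjusted p = 5.55e-06). Its irradiated arrays read 2.53, 3.07, 2.52, 2.58 and 2.27 on this scale, and replicate 2 just reached the control range of 3.06 to 3.73. The Clu probe set 1367784_a_at changed by -0.63 ± 0.17 (SE; upper bound of the interval -0.26; adjusted p = 0.00249), with irradiated arrays from 2.76 to 3.72 and controls from 3.09 to 4.14. The groups overlapped, and this call was lost with other references, at -0.29 (adjusted p = 0.061) against the mean of the reference genes and -0.26 (adjusted p = 0.0672) against the junction genes. The value was 0.044 (adjusted p = 0.722) on log2(signal + 1). It was -0.73 (adjusted p = 0.000795) against Wt1, Gata4 and Dmrt1, transcription factor genes of the reference. Their median equalled the reference median in most arrays, so this kept call is not a separate check. The Clu probe set 1388246_at changed by -0.87 ± 0.21 (SE; interval -1.32 to -0.42; adjusted p = 0.000922) and kept its call under those settings.

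Mro moved with the reference. Its irradiated arrays read 0.51, 0.62, 0.45, 0.60 and 0.39 on this scale, inside the control range of 0.14 to 0.74. The relative change was -0.01 ± 0.11 (SE; interval -0.24 to 0.23; adjusted p = 0.943), so relative changes beyond these bounds lay outside its interval. The sign depended on the reference: the value was 0.33 (adjusted p = 0.000756) against the mean of the reference genes and 0.36 (adjusted p = 0.00298) against the junction genes, but -0.11 (adjusted p = 0.378) against the transcription factor genes. On log2(signal + 1) it was 0.16 (adjusted p = 0.0209).

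Testin stayed higher after the reference was subtracted. Its irradiated arrays read 0.85, 0.73, 0.52, 0.64 and 0.62 on this scale, while the highest control array read -2.84. With the controls raised to their array medians, the relative level was at least 4.26-fold higher, with no test for the reason given above. Ctsl, the gene of its relative cathepsin L, rose by 2.49 ± 0.19 as deposited and by 0.19 ± 0.20 relative to the reference (SE; adjusted p = 0.377). Rhox5, below the array median in all irradiated and 7 of 10 control arrays, was not compared on this scale outside the processing alternatives.

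Among 26 tested genes of other Sertoli cell secreted products, 18 rose, 5 fell and 3 did not pass, with a median change of 2.00. Vtn and Wnt4 passed the filter only through irradiated arrays, and Il1a, Lif and Fgf2 only through control arrays. Their direction was set by the filter. Timp1, which encodes an inhibitor of metalloproteinases, had a measured rise of 5.18 and of at least 4.74 once control values under the array median were raised to it. Cp, which encodes ceruloplasmin, rose by 3.93 ± 0.11 (SE) and Igf1, which encodes a growth factor, by 3.74 ± 0.16. Inha and Inhbb, which encode subunits of inhibin, rose less, by 1.04 and 0.97, and Inhba differed by -0.61 without passing. The deposited changes of Clu, Shbg, Aard and Mro, 1.40 to 2.29, thus lay within the range of this list. Testin and the untested Rhox5 are left out of this comparison. Relative to the reference, 9 of these genes were higher, 13 were lower and 4 did not pass. Several of them are also made by Leydig or peritubular cells or macrophages, so the list is not specific to Sertoli cells.

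Of the other androgen-regulated transcripts, 8 of 13 fixed genes were tested, and 6 rose while 2 fell, with a median of 1.10. Ocln, which encodes the tight junction protein occludin, rose by 2.10 ± 0.14 (SE), Fkbp5, which encodes a chaperone of steroid receptors, by 2.06 ± 0.10, and Tubb3, a beta-tubulin gene, by 1.76 ± 0.14, although another Tubb3 probe set changed by -0.89. Serpina5, which encodes the protein C inhibitor, fell by 1.59 ± 0.16 (SE; adjusted p = 6.77e-08). Eppin, which encodes a protease inhibitor of the sperm surface, fell by 0.26 (adjusted p = 0.0193). With arrays centred on their 75th percentile 4 rose and 2 fell, and with quantile normalization 5 rose and 2 fell. Relative to the Sertoli reference, 7 of the 8 were lower, none was higher, and Ocln did not pass at -0.20 (adjusted p = 0.228). That count is close to the share of all tested probe sets called lower on this scale, 83.5%.

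Of 10 tested genes of androgen supply and reception, 8 rose and 2 fell, with a median of 2.67. Relative to the Sertoli reference 5 were higher, 3 were lower and 2 did not pass. The steroid synthesis genes Cyp17a1 and Hsd3b1 rose by 4.06 ± 0.16 and 3.89 ± 0.14 (SE), and Insl3, which encodes a Leydig cell hormone, by 3.57 ± 0.19. On the relative scale Cyp17a1 was higher by 1.77 and Hsd3b1 by 1.59. Cyp19a1, which encodes aromatase, and Esr1, which encodes an oestrogen receptor, fell by 0.97 and 1.21 and did not reach the array median in any irradiated array, which bounds those falls at no less than 1.44-fold and 1.31-fold. These probe sets passed the filter only through control arrays, so their direction was set by the filter. All 13 tested Sertoli junction genes rose by their probe set of highest mean, with a median of 2.26, among them F11r by 3.22 ± 0.12 and Vcl, which encodes vinculin, by 2.96 ± 0.21, with 1.32 in another Vcl probe set. Jam2, which encodes a junctional adhesion molecule, rose by 1.83 in that probe set and fell by 0.58 (adjusted p = 8.35e-05) in another.

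**Figure D3:**
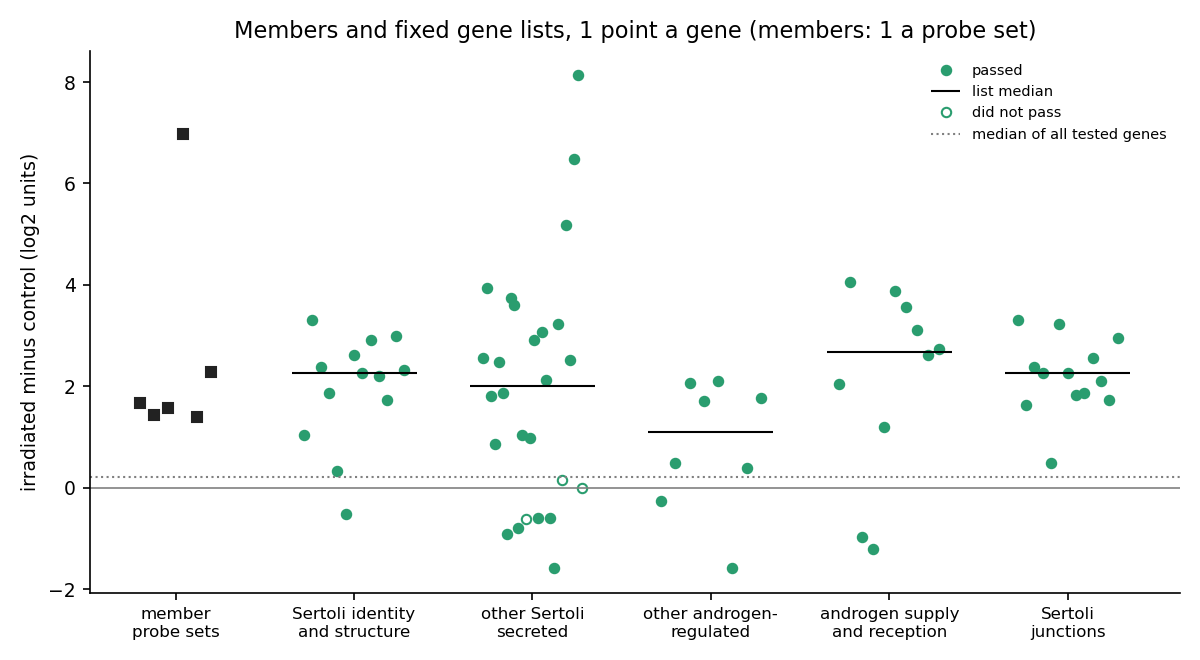
Irradiated minus control (y axis, log2 units) for the tested member probe sets (black squares) and for the tested genes of 5 fixed lists (green, filled where past the threshold), with list medians as bars and the median of all tested genes, 0.20, dotted. Apart from Testin the member probe sets lie between 1.40 and 2.29, and the highest points of the secreted list are Wnt4 and Vtn, which like Testin lie below the array median in all control arrays and are plotted at their measured means.

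Within the groups the members did not move as 1 set. Correlations are of deviations from the group means over the 15 arrays, which share hybridisation and RNA quality, and are given as descriptions. The closest pair was Clu 1367784_a_at and Aard, with r = 0.84, and r = 0.85 without control replicates 6, 7 and 8. Testin with Mro gave 0.70 (0.52 without these arrays), Shbg with Mro 0.69 (0.37) and Shbg with Testin 0.66 (0.55). The values with Testin rest largely on its control arrays, all below the array median, where its levels have no order. Clu 1367784_a_at with Shbg gave 0.50, which went to 0.02 without the 3 arrays. The pair of Clu probe sets gave 0.53. Rhox5 gave -0.36 with Aard (-0.38 without the 3 arrays), -0.31 with Shbg (-0.48) and -0.21 with Mro (-0.31). It gave -0.17 with Clu 1367784_a_at (-0.21), -0.15 with Testin (-0.32) and 0.15 with Clu 1388246_at (0.11). Most Rhox5 values lie below the array median, where levels have no order.

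Control replicates 6, 7 and 8 stood apart in RNA measures. The actin difference, a 3' probe set minus a 5' one, which rises as RNA is shortened from its 5' end, was 1.37 to 1.89 in them, 0.65 to 1.05 in the other 7 controls and 0.90 to 1.16 in the irradiated arrays. They held the lowest control values of Clu 1367784_a_at, at 3.24 to 3.61 against 3.79 to 3.95, and of Mro, at 0.22 to 0.35 against 0.44 to 0.68. Aard read 3.21 to 3.27 against 3.27 to 3.76, and Shbg 0.62 to 0.87 against 0.82 to 1.22. Testin read -6.00 to -4.26 against -4.87 to -2.90. Without these arrays Clu 1367784_a_at rose by 1.52, and the other tested members outside Testin by between 1.32 (Aard) and 2.21 (Mro), and every irradiated array still lay above the remaining controls. The measured change of Testin was then 6.45 and the difference of Rhox5 -2.16. Relative to the reference, Clu 1367784_a_at changed by -0.76 and Mro by -0.08 (adjusted p = 0.444) without them.

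**Figure D4:**
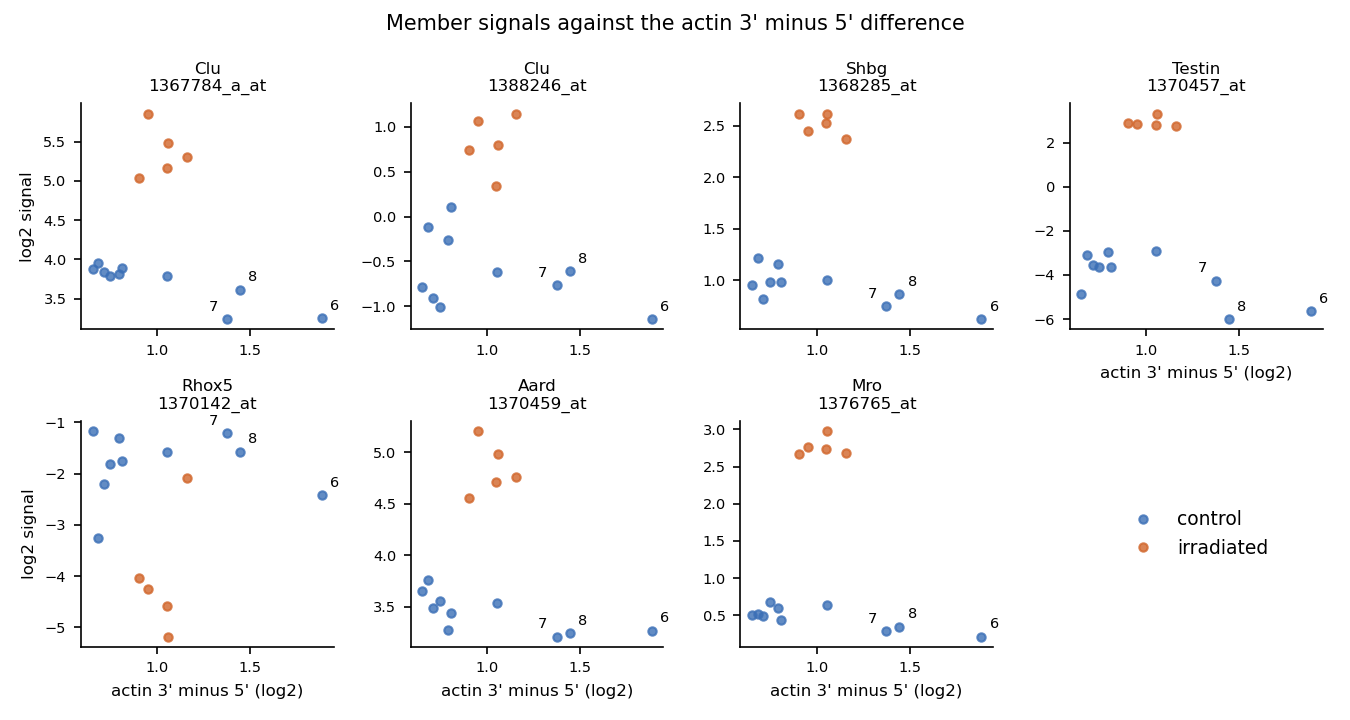
Deposited log2 signal of each member probe set (y axes) against the array's 3' minus 5' actin difference (x axes, log2 units), 1 point an array, with control replicates 6, 7 and 8 numbered. These 3 arrays lie at 1.37 to 1.89 on the x axis and hold the lowest control values of Clu 1367784_a_at and Mro, and the irradiated arrays lie at 0.90 to 1.16.

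The genes whose deviations most resembled each member's over the 15 arrays differed from member to member. For Clu 1367784_a_at they were Selenop (r = 0.96), Apoe (0.93) and B2m (0.93), which encode a selenium carrier, an apolipoprotein and the light chain of class I histocompatibility molecules. For Aard they were Itm2b (0.95), Eef1a1 (0.92) and Rps3a (0.90), the last a pair of translation genes. For Mro they were Gnai1 (0.93), Nup62 (0.93) and Adnp (0.91), and for Shbg Sfmbt1 (0.92), Yipf3 (0.91) and Coasy (0.91). For Testin they were Ntrk2 (0.91), Emg1 (0.91) and Gpx1 (0.90), and for Rhox5 Htt (0.86), Prl3a1 (0.85) and Slc22a7 (0.84). Those of Testin and Rhox5 rest largely on member values below the array median, which have no order. Genes alike within the groups could differ in their change between them. Sfmbt1 changed by -1.07 and Nup62 by -1.67 where Shbg and Mro rose, and Emg1 had a difference of 0.19 (adjusted p = 0.753). Without control replicates 6, 7 and 8 the correlations of these genes were between 0.81 and 0.95 over 12 arrays.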

How the data were processed

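The authors deposited log2 signals of every probe set on every array. MAS5 is the tool the submitters' processing notes name, and how its signals were scaled and turned into logs is not stated in what was used here. Base 2 was inferred from the hybridisation spike-ins at nominal 1.5, 5, 25 and 100 pM, which rose by 0.816 to 0.969 log2 units per doubling. Each labelling used 10 µg of total RNA, per the labels. No column was left unused (0), and no arrays were identical (0 pairs). The number of arrays limits the precision.

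Of 31099 probe sets, 20832 had 1 symbol in the platform annotation, 436 several and 9831 none; only the first were named. The 57 control probe sets were left out. Values were used as deposited, with no further log step. limma 3.58.1 in R 4.3.3 (lmFit, eBayes, 2-sided) was fitted on all tested probe sets of the 15 arrays with no covariate. A probe set that reached no array median in a group counted as dim there, and its fold is the brighter mean over the mean of the higher of array median and own value. A gene of several probe sets was represented by the tested one of highest mean. The script was tested on simulated data. Gene names beyond the members were chosen by rule: the 3 genes closest to each member by correlation of deviations, and the largest changes in each list among genes above the array median in both groups. Further list genes were named for their function after their values were seen. Some items are not reported here. The members and gene lists were chosen with earlier results of these data known. Alternatives covered the filter, moderation, log scale, normalization, the reference, the arrays used and a replicate block.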

Additional observations from a re-analysis of the deposited data

Results flagged for a closer look

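Irradiated replicate 1 stood apart from the other 4 irradiated arrays in 2 member probe sets. It held the highest irradiated value of Testin, 3.31, with a gap to the next array of 0.741 of the group's range. It also held the highest irradiated value of Mro, 2.97, with a gap of 0.713 of the range. Both gaps exceed Dixon's critical value for 5 arrays. Of 16 groups of values examined, 2 did so, and chance gives about 1 in 20. Without irradiated replicate 1 the change of Mro was 2.24, against 2.29 with it. This array also had the highest 75th percentile, 0.24, and the highest reference median, 2.46, among the irradiated arrays. Relative to the reference its Mro value of 0.51 lay inside the irradiated range of 0.39 to 0.62, and its Testin value of 0.85 stayed the highest.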

How the results depend on the processing

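As deposited, the Clu, Shbg, Aard and Mro probe sets kept their direction and call under every alternative run. Changes, measured differences for Testin, ranged from 1.29 to 1.93 (Clu 1367784_a_at), 0.73 to 1.63 (Clu 1388246_at), 1.20 to 1.70 (Shbg), 3.00 to 7.39 (Testin), 1.03 to 1.54 (Aard) and 1.70 to 2.37 (Mro). With a pseudocount of 1, the difference of Rhox5 moved from -2.20 to -0.27 as deposited. Its difference relative to the reference moved from -4.50 to -1.81 with the pseudocount, at low signal. Relative to the reference, Clu 1367784_a_at gave 0.044 with the pseudocount, -0.29 with the mean of the reference genes and -0.26 with junction genes, and Mro gave 0.16, 0.33 and 0.36; the cause was not tested. Against the transcription factor genes Wt1, Gata4 and Dmrt1, whose median equalled the reference median in most arrays, they gave -0.73 and -0.11. Without Dmrt1, Gata1 and Amhr2 in the reference, an alternative chosen after seeing the data, Clu 1367784_a_at was at -0.72 and Mro at -0.10. Filtering at the 75th percentile tested 10448 probe sets and called 9442, against 15598 of 18711, and 9488 relative to the reference, against 16891. With no filter 27586 were called relative to the reference. Leaving out each array in turn, 13758 to 15562 and, relative to the reference, 15820 to 16774 were called. Leaving out an irradiated array takes Testin below the filter of 5 arrays. With a filter of 4 arrays, chosen after seeing the data, its measured change was 6.89 to 7.02 over the 5 left-out irradiated arrays, and it was 6.77 to 7.11 over all left-out arrays, with control arrays left out under the filter of 5. All tested probe sets shifted by a median of 0.30 as deposited, 0.04 after quantile normalization and -0.08 with arrays centred on the 75th percentile. The share of rises among calls was 58.8%, 51.2% and 47.8%. Replicate numbers 1 to 5 did not pair the samples: correlations of same-numbered deviations were -0.05, 0.04, 0.02, -0.04 and 0.07. With the replicate block, Clu 1367784_a_at changed by 1.51, Shbg by 1.46, Testin by 6.57, Aard by 1.31 and Mro by 2.21, no member's call changed, and 14430 probe sets were called.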
